A study of Mus musculus with 12 samples.

Results

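The miRNAs described here are 5 arms of the mouse miR-290 cluster, listed as mmu-miR-290a-3p, mmu-miR-291a-3p, mmu-miR-291b-3p, mmu-miR-294-3p and mmu-miR-295-3p. They were taken from the deposited count table by name, and all 5 were found among its 1549 features. Small RNA was sequenced from 12 libraries in 5 groups, each wild type in genotype and each collected by sorting. The androgenetic haploid embryonic stem cell (ESC) lines carry a paternal genome only, and were A129-2 with 2 libraries, A129-6 with 3 and A129-17 with 2. They were grown with LIF and the kinase inhibitors PD0325901 and CHIR99021, and haploid cells were enriched by Hoechst sorting. R1 (2 libraries) is a diploid ESC line whose culture conditions were not given separately. Round spermatids (RS, 3 libraries) are haploid germ cells of 129Sv male mice, taken from the testis by a Hoechst sort. The title of the series concerns let-7a overexpression and the diploidization of haploid ESC, and the labels name none of these libraries as let-7a overexpressing. Each haploid group is a single line, and R1 is the only diploid line, so a difference from R1 cannot be told apart from a difference between lines. Replicates were sorted independently, but separate cultures or animals, and any pooling of animals, were not given. The spread that p-values measure is thus only that of these samples, and it may be technical.

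The miR-290 cluster is transcribed as one primary RNA that is cut into several hairpins, and each hairpin can give a 5p and a 3p mature arm. It is known as the main miRNA cluster of mouse ESC. A miRNA recognises its targets mainly through its seed, the bases near the 5′ end. Arms of this cluster with an AAGUGC seed promote the passage of ESC from G1 to S phase, in part by repressing Cdkn1a, Rbl2 and Lats2, which restrain the cycle, and let-7 miRNAs are known to oppose them during differentiation. The miR-302 family carries the same seed, and the miR-17 family carries it shifted by a base.

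The mature sequences are printed to show the AAGUGC that the 5 arms share and the few bases in which they differ. They are given 5′ to 3′ from RefSeq (build GRCm38.p6), with the seed, bases 2 to 8, in capitals.
miR-290a-3p: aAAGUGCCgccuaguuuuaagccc
miR-291a-3p: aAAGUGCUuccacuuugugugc
miR-291b-3p: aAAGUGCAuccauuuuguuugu
miR-294-3p: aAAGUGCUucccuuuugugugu
miR-295-3p: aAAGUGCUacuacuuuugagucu
By the seed over bases 2 to 8, miR-291a-3p, miR-294-3p and miR-295-3p form a group with AAGUGCU, while miR-290a-3p has AAGUGCC and miR-291b-3p has AAGUGCA.

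All 5 loci lie on the plus strand of chromosome 7, at chr7:3218674-3218697 for miR-290a-3p, chr7:3218968-3218989 for miR-291a-3p, chr7:3219529-3219550 for miR-291b-3p, chr7:3220691-3220712 for miR-294-3p and chr7:3220815-3220837 for miR-295-3p. In GENCODE M21 the hairpins of 4 of them lie opposite exon 10 of Nlrp12, within its UTR on the other strand, and Mir290a does not overlap Nlrp12. The miR-290a-3p locus is also the locus of miR-290b-5p on the opposite strand, and whether the counting used strand was not given, so the split between these arms is uncertain. Counted from 1 at the 5′ end, miR-291b-3p differs from miR-291a-3p by U8A, C13U, G19U and C22U. From miR-291a-3p to miR-294-3p the differences are A12C, C13U and C22U. How reads matching several of these arms were assigned was not given, so the split between miR-291a-3p, miR-291b-3p and miR-294-3p is uncertain to that extent.

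The ESC libraries held 3709786 to 9102467 counts, and the RS libraries 155232 to 243714. The miR-290 cluster took 64.1% to 77.1% of all counts in the haploid libraries, 49.1% and 50.2% in R1, and 0.00985%, 0.678% and 0.0432% in RS replicates 1 to 3. Its single most abundant arm, miR-292a-5p, took 35.6% to 56.9% in the haploid libraries, against 14.8% and 15.1% in R1. A share this large bears on every level given relative to a library's total. A129-6 replicate 3 stood apart from its group. Its deviations from the mean over all haploid libraries correlated at -0.10 and -0.23 with those of A129-6 replicates 1 and 2. With those of A129-17 replicates 1 and 2 they correlated at 0.24 and 0.09 (448 features). As a check of the labels, 7 markers of pluripotent cells summed to 55698 to 102180 CPM (counts scaled to a common library total) in the haploid libraries, 133779 and 139144 in R1, and 12.3 to 1830 in RS. Testis markers (7) summed to 157 to 798 CPM in the haploid libraries, 924 and 958 in R1, and 252784 to 343076 in RS. Both lists went with the labelled cell types. Of the pluripotent markers, miR-367-3p was at 0 in some haploid libraries, and 5 of the 7 were at 0 in RS replicates 1 and 3. Of the testis markers, up to 3 of the 7 were at 0 in a haploid library and at most 1 in an RS library.

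Together, the 5 arms made up a smaller share of the miRNA pool in the haploid ESC than in the diploid ESC, and were nearly missing from spermatids. Their sum was 2.79% and 3.37% of all counts in A129-2. It was 3.86%, 3.59% and 2.12% of counts for A129-6, 1.89% and 2.67% of counts for A129-17, and 5.95% and 5.45% of counts for R1. In RS it was 0.00451%, 0.0754% and 0.00480%. Every haploid library was below both R1 libraries and above every RS library. Within the counts of the cluster, the 5 arms held 2.45% to 5.45% in the haploid libraries, against 12.1% and 10.9% in R1. Fewer cells of a type and less RNA per cell cannot be told apart in such bulk samples.

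**Figure D1:**
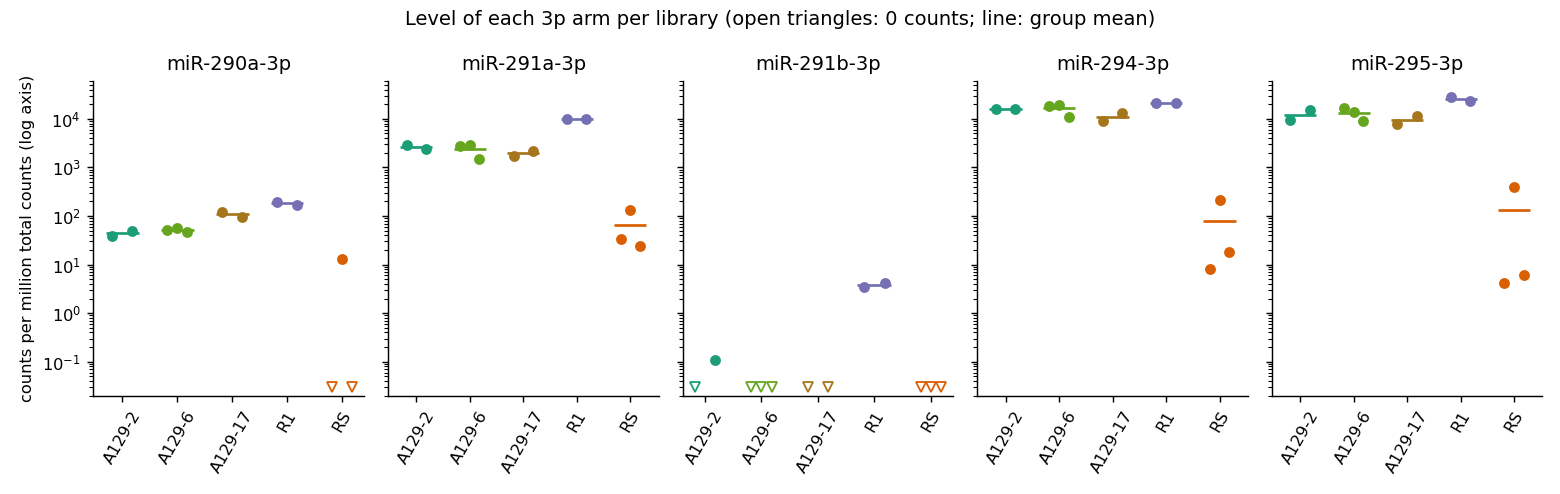
CPM of total counts of each 3p arm (log axis) in the 12 libraries, grouped as A129-2, A129-6, A129-17, R1 and RS. Filled points are libraries, open triangles are libraries with 0 counts, and lines are group means, drawn only where no library of the group was at 0. Both R1 libraries lie above all 7 haploid libraries for each arm by this scale, and miR-291b-3p is at 0 in 6 of the 7 haploid libraries.

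The most abundant of the 5 were miR-294-3p and miR-295-3p, and the order of the levels differed between the haploid lines and R1. miR-294-3p, whose return is known to speed up the slow cycle of ESC that lack miRNAs, had 15599 and 16295 CPM in A129-2, 18791, 19449 and 10786 CPM in A129-6, 9159 and 13151 CPM in A129-17, and 21621 and 21602 CPM in R1. miR-295-3p, which has the same seed, had 9324 and 14993 CPM in A129-2, 17019, 13554 and 8892 CPM in A129-6, 7851 and 11284 CPM in A129-17, and 27757 and 22841 CPM in R1. In all 7 haploid libraries miR-294-3p was above miR-295-3p, and in both R1 libraries it was below. The ratio of miR-295-3p to miR-294-3p was 0.598 to 0.920 in the haploid libraries, and 1.28 and 1.06 in R1. These are uncorrected counts. With a correction for the GC content of the mature sequences, the log2 difference of the haploid mean from R1 was 1.03 for miR-295-3p and 0.74 for miR-294-3p. The shift between these 2 arms then went the other way.

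miR-291a-3p, the third in every ESC library, had 2916 and 2347 CPM in A129-2, 2761, 2863 and 1492 CPM in A129-6, 1725 and 2167 CPM in A129-17, and 9885 and 9889 CPM in R1. All haploid libraries were far below R1, by more than their own spread. miR-290a-3p, the fourth, had 38.0 and 49.9 CPM in A129-2, 50.7, 56.5 and 46.8 CPM in A129-6, 122 and 95.5 CPM in A129-17, and 191 and 171.8 CPM in R1. Here both A129-17 libraries were above those of the other 2 lines and below R1. miR-291b-3p had 0 and 1 counts in A129-2, 0 counts in all A129-6 and A129-17 libraries, and 26 and 39 counts (3.41 and 4.25 CPM) in R1. A count of 0 in these haploid libraries allows a level of at most 0.99 CPM (exact binomial interval at 95%, for counting error only).

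The spermatid libraries held few reads of the 5 arms, and most of them came from a single library. miR-295-3p had 1, 61 and 1 counts in RS replicates 1 to 3, miR-294-3p 2, 33 and 3 counts, miR-291a-3p 8, 21 and 4 counts, and miR-290a-3p 0, 2 and 0 counts. miR-291b-3p had 0 counts in each, which allows up to 15.1, 23.8 and 22.1 CPM at these depths, so its level in R1 would not have been detectable in RS. RS replicate 2 held 117 of the 136 counts. In that library the pluripotent markers summed to 1830 CPM, against 12.3 and 90.0 CPM in replicates 1 and 3. There miR-302a-3p, miR-302c-3p and miR-367-3p had 0 counts, as they did in the other 2 RS libraries. The part of other cells in its counts was not tested.

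The comparison of the haploid lines with R1 asks how androgenetic haploid ESC differ from diploid ESC. With the 3 lines weighed equally, 4 of the 5 arms were lower in the haploid ESC and none was higher (edgeR's quasi-likelihood test, Benjamini-Hochberg adjusted p under 0.05 over 757 features). This count stands against a background in which 70.5% of all tested features were called, 35.3% as lower and 35.3% as higher, so a call by itself sets the arms little apart. Of the 4 arms called, miR-291b-3p passed the filter only through R1, so its call as lower was close to fixed in advance. The median log2 difference was -1.36 over the 5 arms and 0.33 over all tested features.

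miR-291a-3p averaged 2312 ± 29.2 normalised CPM over the haploid lines (SD of 3 line means) and 9155 ± 311 normalised CPM in R1 (SD, n = 2). Normalised CPM are counts relative to a library size scaled by TMM. The log2 difference was -1.99 (SE 0.19), or 3.96-fold lower, with an adjusted p of 2.40e-07 by edgeR. It kept this direction and its call in each of 21 other settings, between -2.23 and -1.13.

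miR-295-3p averaged 11879 ± 1071 normalised CPM over the haploid lines and 23482 ± 4021 normalised CPM in R1. Its log2 difference was -0.99 (SE 0.27, edgeR adjusted p 0.00432), or 1.98-fold lower, but its direction depended on the setting. The call was lost without R1 replicate 1 (-0.82, adjusted p 0.0767) and in a fit of all 12 libraries together (-0.12, with an adjusted p of 0.919), and a correction for the GC content of the mature sequences turned it to 1.03 (adjusted p 0.00348).

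miR-294-3p averaged 14517 ± 1530 normalised CPM over the haploid lines and 20012 ± 698 normalised CPM in R1. Its difference of -0.47 (SE 0.22, edgeR adjusted p 0.0694) did not pass the threshold. It passed as lower in 4 other settings: with RLE size factors (-0.72, adjusted p 0.00714), with DESeq2 (-0.72, adjusted p 0.0051), with the cluster left out of the scaling (-0.58, adjusted p 0.0402) and without A129-2 replicate 2 (-0.64, adjusted p 0.00996). The sign turned with the GC correction (0.74, adjusted p 0.00669) and with all 12 libraries in the fit (0.39). No direction is given for miR-294-3p for that reason. The fit with all 12 libraries also moved the median difference over all features by 0.85.

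The gap between miR-291a-3p and miR-294-3p was steadier than their levels. The log2 difference of miR-291a-3p minus that of miR-294-3p was -1.52, and between -1.57 and -1.45 in all other settings except the GC correction, where it was -2.05. A scaling factor is common to all arms of a library and drops out of this gap, so its steadiness over scalings is built in. The gap between miR-295-3p and miR-294-3p was not as steady. Their log2 differences were -0.99 and -0.47 in the main fit, and 1.03 and 0.74 with the GC correction, so their order turned.

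miR-290a-3p averaged 75.1 ± 50.0 normalised CPM over the haploid lines and 168 ± 18.4 normalised CPM in R1. The log2 difference was -1.36 (SE 0.28, edgeR adjusted p 0.000589), or 2.57-fold lower. The call was lost when counts were summed per line (-1.15, adjusted p 0.177) and in a fit of all 12 libraries together (-0.50, adjusted p 0.261).

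miR-291b-3p had 1 count over all 7 haploid libraries and 65 counts over both R1 libraries (edgeR adjusted p 8.66e-05). It passed the filter only through its R1 counts, so a call as lower was close to fixed in advance and is not read as support. Its R1 level was 160 times that of the haploid libraries, with a counting interval of 27.7 to 6419.

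By CPM of total counts, every haploid library lay below both R1 libraries for 5 of 5 arms, as it did for 34.5% of all tested features. By normalised CPM this held for 4 of 5 arms, miR-290a-3p being the exception, and for 35.1% of all tested features. The summed CPM of the 7 pluripotent markers, none of them among the 5 arms, was also lower in every haploid library than in both R1 libraries, and its part in the result was not tested. The list includes miR-292a-3p and miR-293-3p of the same cluster, and not every marker was lower. miR-292a-3p averaged 35375 normalised CPM in A129-2, 42572 normalised CPM in A129-6, 49791 normalised CPM in A129-17 and 34046 normalised CPM in R1, with no call for the haploid mean (0.31, edgeR adjusted p 0.328). Markers of differentiated lineages (6) summed to 623 to 1048 CPM in the haploid libraries, against 3298 and 3347 CPM in R1. Mesenchymal or feeder fibroblast markers (6) summed to 5958 to 26969 CPM in the haploid libraries, against 15011 and 16709 CPM in R1. Blood and endothelium markers (7) summed to 356 to 856 CPM in the haploid libraries, against 640 and 678 CPM in R1, so the ranges overlapped for these last lists.

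**Figure D2:**
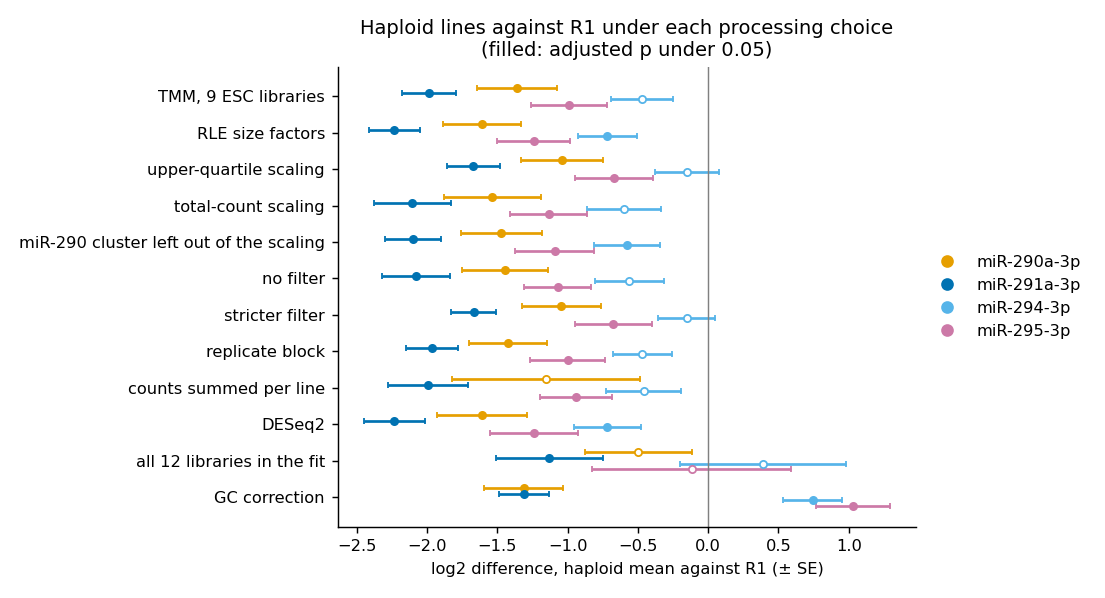
Log2 difference of the haploid mean from R1 with its SE (x axis) for miR-290a-3p, miR-291a-3p, miR-294-3p and miR-295-3p under 12 processing choices (y axis). Filled points passed an adjusted p of 0.05. miR-291a-3p stays left of 0 in every line, miR-294-3p crosses 0 with all 12 libraries and with the GC correction, and miR-295-3p crosses it with the GC correction.

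Each haploid line was also set against R1 in the same fit, and these comparisons share the R1 libraries. In A129-2, 4 of 5 arms were lower than in R1, against a background of 59.8% called (28.8% as lower, 31% as higher). In A129-6, 4 of 5 were lower, with 67.1% called (32.1% as lower, 35% as higher), and in A129-17, 3 of 5, with 66.2% called (31.6% as lower, 34.6% as higher). None of the 5 was higher in any line in this fit. With the GC correction, miR-294-3p and miR-295-3p were called higher in each line. The arms called lower include miR-291b-3p in each line, which passed the filter only through R1.

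miR-291a-3p had almost the same difference in each line, at -2.01 (SE 0.27, adjusted p 1.48e-05) in A129-2, -1.97 (SE 0.23, adjusted p 3.35e-06) in A129-6 and -1.98 (SE 0.27, adjusted p 1.22e-05) in A129-17. In a fit of all 12 libraries together it was smaller, at -1.18 for A129-2 (adjusted p 0.0527), -1.11 for A129-6 (adjusted p 0.0373) and -1.10 for A129-17 (adjusted p 0.0652), so the calls for A129-2 and A129-17 were lost there. For miR-295-3p, A129-2 was at -1.07 (SE 0.36, adjusted p 0.0187), A129-6 at -0.84 (SE 0.32, adjusted p 0.0305) and A129-17 at -1.05 (SE 0.36, adjusted p 0.0180). These calls of miR-295-3p were lost under 5 of 20 other settings for A129-2, 7 of 20 for A129-6 and 6 of 20 for A129-17 with the sign kept. The call for A129-6 was also lost with all 12 libraries in the fit, where the value was 0.018, and the sign turned in each line with the GC correction. Among the libraries left out, R1 replicate 1 ended the call in each line, R1 replicate 2 that in A129-6, A129-2 replicate 1 that in A129-2, A129-6 replicates 2 and 3 that in A129-6, and A129-17 replicate 1 that in A129-17. For miR-294-3p, A129-2 was at -0.50 (SE 0.28, adjusted p 0.138), A129-6 at -0.31 (SE 0.26, adjusted p 0.310) and A129-17 at -0.60 (SE 0.28, adjusted p 0.0737), none past the threshold. It passed as lower in 3 of 20 other settings for A129-2 and in 5 of 20 for A129-17, among them without A129-2 replicate 2 for both and without A129-2 replicate 1 for A129-17.

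miR-290a-3p was the arm whose difference depended on the line. It was -2.07 in A129-2 (SE 0.40, adjusted p 0.000353) and -1.66 in A129-6 (SE 0.34, adjusted p 0.000602), and -0.35 in A129-17 (SE 0.38, adjusted p 0.423). In a fit of all 12 libraries together the call for A129-6 was lost (-0.80, adjusted p 0.122). miR-291b-3p had 1 count in A129-2, where the R1 level was 49.4 times as high, with a counting interval of 8.57 to 1983 (adjusted p 0.00649). With 0 counts it was at least 19.4-fold lower in A129-6 (adjusted p 0.000754) and at least 9.75-fold lower in A129-17 (adjusted p 0.00393) than in R1. These are lower limits of the counting interval. The call in A129-2 was lost without its replicate 1, without R1 replicate 2 or with the GC correction, and that in A129-17 with the GC correction. All these adjusted p-values are from edgeR.

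**Figure D3:**
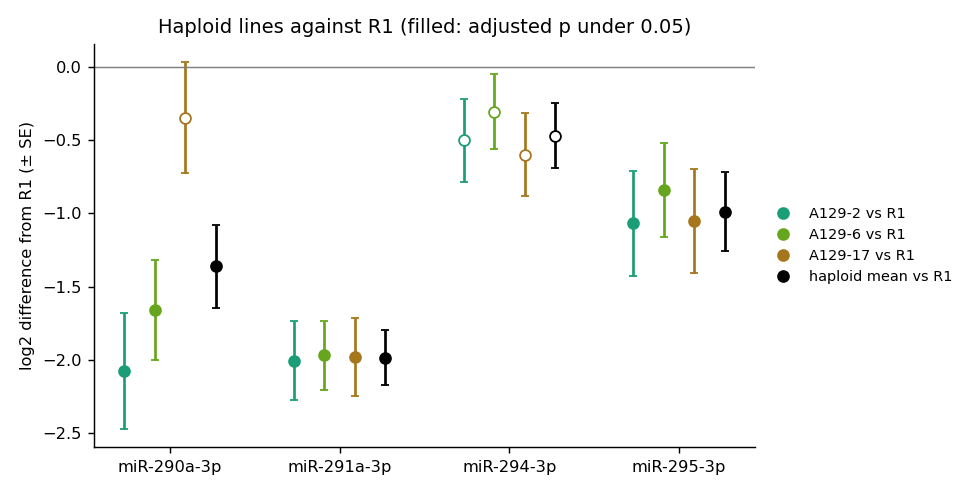
Log2 difference from R1 (y axis) with its SE for miR-290a-3p, miR-291a-3p, miR-294-3p and miR-295-3p (x axis) in A129-2, A129-6, A129-17 and their mean. miR-291b-3p is not drawn. Filled points passed an adjusted p of 0.05. The lines lie together at about the same value for miR-291a-3p, while A129-17 lies apart at -0.35 for miR-290a-3p. The sign of miR-294-3p and miR-295-3p turns with the GC correction, and that of miR-294-3p also with all 12 libraries in the fit.

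Among the haploid lines, 1 of the 5 arms, miR-290a-3p, differed by an F-test over the lines (edgeR adjusted p 0.0394), with 3.83% of all tested features called. Its line means were 132 ± 40.0 normalised CPM in A129-17 (n = 2), 53.2 ± 11.8 in A129-6 (n = 3) and 39.8 ± 17.3 in A129-2 (n = 2). By pairs of lines no arm passed with edgeR. At an unadjusted p under 0.05, miR-290a-3p passed between A129-17 and A129-2, where 181 features did, and between A129-17 and A129-6, where 123 did. With DESeq2 it was called in both pairs, with 72 and 29 features called. Between A129-6 and A129-2 no arm passed at an unadjusted p or with DESeq2, which called 42 features. The log2 difference of miR-290a-3p was 1.73 (SE 0.39, adjusted p 0.0523) between A129-17 and A129-2, 1.31 (SE 0.34, adjusted p 0.113) between A129-17 and A129-6, and 0.41 (SE 0.35, adjusted p 0.704) between A129-6 and A129-2. The background called was 0%, 0% and 2.38% of features for these pairs. The F-test call was lost without A129-2 replicate 1, A129-6 replicate 1, A129-6 replicate 2 or A129-17 replicate 1, the adjusted p ranging from 0.000704 to 0.179 over all settings. The other 4 arms did not pass, with adjusted p-values of 0.990 for miR-291a-3p, 0.700 for miR-294-3p, 0.847 for miR-295-3p and 0.656 for miR-291b-3p.

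The levels of the arms were not independent of each other across libraries. As a description over the 9 ESC libraries, log2 levels of miR-294-3p and miR-295-3p correlated at r = 0.94, and at 0.88 over the 7 haploid libraries. miR-290a-3p and miR-294-3p correlated at 0.39 over the 9 ESC libraries and at -0.14 over the 7 haploid libraries. These points share the scaling of each library, and those over 9 libraries also share the gap between R1 and the haploid lines. Among 434 miRNAs outside the cluster, the levels most like the summed 5 arms over the 9 ESC libraries were those of miR-494-3p (r = 0.97), miR-106a-5p (r = 0.95) and miR-182-5p (r = 0.94), with the same gap shared.

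The make-up of the 5-arm pool differed between haploid and diploid ESC. miR-294-3p held 50.8% ± 1.67 of the summed counts in the haploid lines (SD of 3 line means, libraries 48.4% to 55.96%) and 38.0% ± 2.31 in R1 (SD, n = 2). miR-291a-3p held 8.24% ± 0.745 in the haploid lines and 17.4% ± 1.07 in R1. miR-295-3p held 40.7% ± 1.55 in the haploid lines and 44.3% ± 3.38 in R1, with overlapping libraries. The shares of miR-294-3p and miR-291a-3p did not overlap between the haploid and the R1 libraries, while that of miR-295-3p differed by -3.57 percentage points, about its spread in R1. With miR-292a-3p, a further arm of the cluster, added to the sum, the share of miR-294-3p in the haploid lines minus R1 turned to -2.28 from 12.8 percentage points, and that of miR-291a-3p kept its direction.

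miR-290a-3p held 0.142% of the pool in A129-2, 0.170% of it in A129-6 and 0.501% of it in A129-17, against 0.318% in R1. miR-291b-3p held at most 0.000326% in the haploid libraries, against 0.00573% and 0.00780% in R1. In RS replicate 2, with 117 counts, miR-295-3p held 52.1% (exact binomial interval 42.7% to 61.5%), miR-294-3p 28.2%, miR-291a-3p 17.9% and miR-290a-3p 1.71%. The other RS libraries had 11 and 8 counts in all, too few to give an order. By the seed over bases 2 to 8, arms with AAGUGCU made up 99.4% to 99.9% of the pool in the haploid libraries and 99.7% in R1. This share is near its ceiling in every ESC library, since the abundant miR-292a-3p is not in the pool, and nothing is read from it. The ratio of miR-291a-3p to miR-294-3p, arms with the same seed, was 0.138 to 0.188 in the haploid libraries, and 0.457 and 0.458 in R1.

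**Figure D4:**
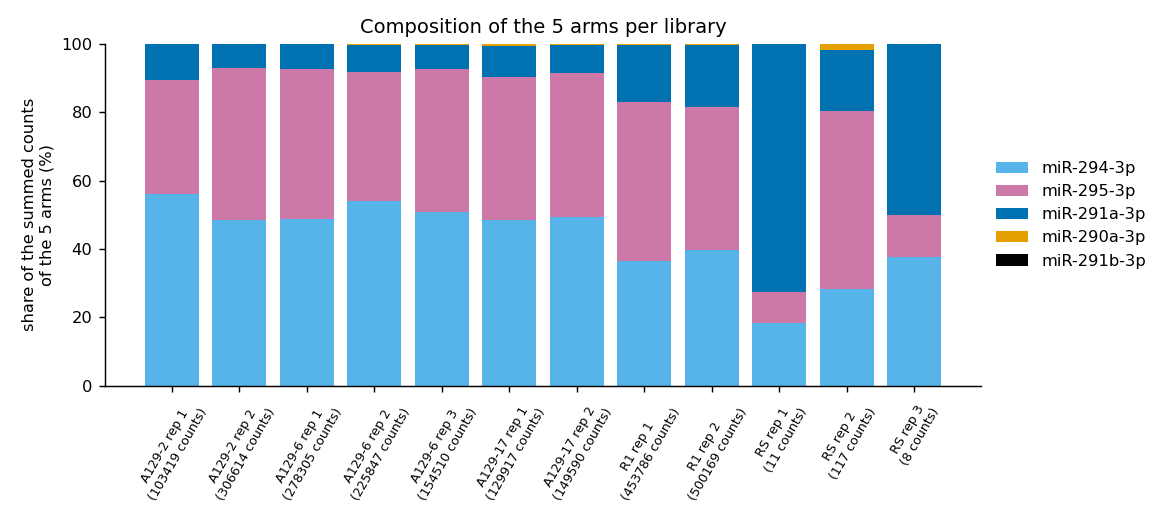
Share of each arm in the summed counts of the 5 arms (y axis, %) in each library (x axis, with the summed counts). The band of miR-294-3p covers 48.4% to 55.96% in the haploid libraries and 36.4% and 39.6% in R1, and the RS bars rest on 11, 117 and 8 counts.

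Since both arms of a hairpin come from the same precursor, the 3p arm was also set against its 5p partner. The 5p arms of miR-291a and miR-291b are printed here, 5′ to 3′ with bases 2 to 8 in capitals, because they moved opposite to their 3p arms.
miR-291a-5p: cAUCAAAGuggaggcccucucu
miR-291b-5p: gAUCAAAGuggaggcccucucc
They share these bases and differ by C1G and U22C, so reads of one may have been counted for the other. In miR-291a the 3p arm made up 18.7% and 16.6% of the counts of both arms in A129-2. This share was 19.5%, 19.9% and 26.9% for A129-6, 26.1% and 24.2% for A129-17, and 76.0% in each R1 library. The 3p arm was thus the minor arm in all haploid libraries and the major arm in R1. While miR-291a-3p was lower in the haploid lines, miR-291a-5p was higher, with log2 differences from R1 of -1.99 for the 3p arm and 1.57 for the 5p arm. The difference between the arms was -3.56 on the log2 scale (edgeR's diffSpliceDGE, adjusted p 3.27e-09 over 213 hairpins).

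By that test, 4 of the 5 hairpins, miR-291b among them, were called for arm use between the haploid lines and R1. Over all 213 hairpins, 61.5% were called, 29.1% with the 3p arm lower against its partner, and the median over all was 0.25. In miR-291b, where the 5p arm dominates, the 3p share was 0% to 0.00771% in the haploid libraries, against 1.32% and 1.46% in R1. The 5p arm was higher in the haploid lines by 3.25 on the log2 scale (adjusted p of the arm test 7.50e-10), and the 3p arm rests there on 1 count. That 3p arm passed the filter only through R1, so the arm call of miR-291b was close to fixed in advance and is not read as support.

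In miR-290a the 3p share was 5.51% ± 0.663 in A129-2 (n = 2), 6.88% ± 1.97 in A129-6 (n = 3), 19.0% ± 1.36 in A129-17 (n = 2) and 18.1% ± 0.900 in R1 (SD, n = 2). The level of its 5p arm was -0.23 from R1 and not called (edgeR adjusted p 0.382), and the arms differed by -1.13 (adjusted p 0.00485). A129-17 lay with R1 and apart from the other 2 lines. In miR-294 the 3p share was 99.4% to 99.8% in the haploid libraries, against 99.2% and 99.3% in R1, and the arms differed by 0.94 (adjusted p 0.00648). Its 5p arm, with under 1% of the counts, was lower in the haploid lines, at -1.41 (edgeR adjusted p 0.000338). The arm calls of miR-290a and miR-294 were lost without R1 replicate 1 (adjusted p 0.0951 and 0.128) or R1 replicate 2 (adjusted p 0.0601 and 0.0729). In miR-295 the 3p share was 98.8% to 99.5% in the haploid libraries, against 99.3% and 99.4% in R1, and the arms did not pass (-0.26, adjusted p 0.509). Its 5p arm was lower in the haploid lines, at -0.72 (edgeR adjusted p 0.0334).

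**Figure D5:**
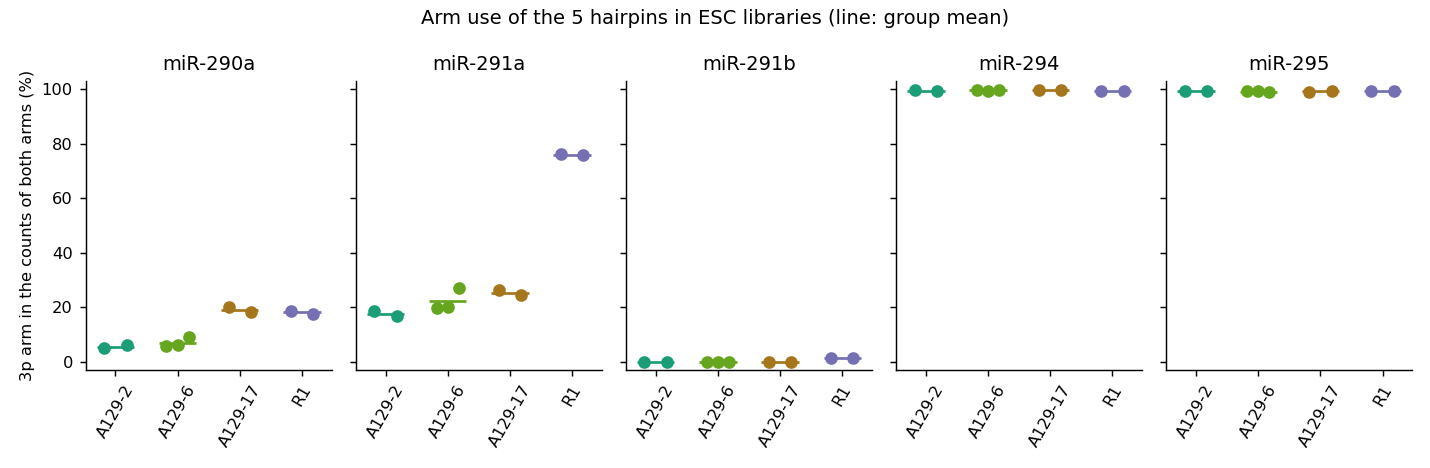
Share of the 3p arm in the counts of both arms (y axis, %) for each of the 5 hairpins in the ESC libraries (x axis, by line). Points are libraries and lines group means. For miR-291a the haploid libraries lie at 16.6% to 26.9% and R1 at 76.0%, while miR-294 and miR-295 lie at 98.79% or above in both.

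Both kinds of ESC were set against round spermatids, in a fit of all 12 libraries over 806 features. Of the 5 arms, 4 were higher in the haploid lines than in RS, where 65.4% of all features were called, 44.5% as higher. The same number was higher in R1 than in RS, where 53% were called, 33.6% as higher. Among these 4 is miR-290a-3p, which passed the filter only through the ESC libraries, so its call was close to fixed in advance. Both comparisons share the RS libraries. The median log2 difference from RS over all tested features was 2.79 in the haploid lines and 2.04 in R1.

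miR-291a-3p was higher by 7.01 on the log2 scale in the haploid lines (SE 0.54, adjusted p 1.23e-10) and by 8.14 in R1 (SE 0.59, adjusted p 4.18e-10). miR-294-3p was higher by 9.44 in the haploid lines (SE 0.85, adjusted p 1.25e-09) and by 9.05 in R1 (SE 0.86, adjusted p 5.95e-09). miR-295-3p was higher by 8.43 in the haploid lines (SE 1.00, adjusted p 9.86e-08) and by 8.55 in R1 (SE 1.04, adjusted p 2.17e-07). miR-291a-3p and both of the most abundant arms were thus far above the spermatid level in either kind of ESC.

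miR-290a-3p, with only 2 counts in RS, passed the filter only through the ESC libraries. A call as higher was thus close to fixed in advance for miR-290a-3p and is not read as support. Its ratio to RS was 62.2 in the haploid lines (counting interval 17.2 to 514, adjusted p 1.02e-07) and 85.0 in R1 (23.5 to 702, adjusted p 1.15e-07). miR-291b-3p was not called higher in R1, with 65 counts in R1 and 0 in RS (adjusted p 0.111), and no fold is given for it. It passed in 2 of 12 other settings, among them with the cluster left out of the scaling (adjusted p 0.0413). The adjusted p-values are from edgeR.

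The size of these differences rests on the scaling and on RS replicate 2. Total-count scaling moved the median difference from RS over all features by -1.68 in the haploid lines and by -0.72 in R1. Over all settings, the difference of miR-291a-3p in the haploid lines was as low as 5.21. Without RS replicate 2, the fitted log2 difference from RS was 8.11 in the haploid lines and 10.10 in R1 for miR-291a-3p. It was 11.98 in the haploid lines and 12.45 in R1 for miR-294-3p, and 13.02 in the haploid lines and 14.01 in R1 for miR-295-3p. By pooled counts without it, miR-291a-3p was 241 times the RS level in the haploid lines (counting interval 138 to 466) and 520 times in R1 (297 to 1006). miR-290a-3p then had 0 counts in RS, and was at least 22.6-fold higher in the haploid lines and at least 30.8-fold higher in R1, by the lower limit of the counting interval. The 4 calls were kept in both comparisons without any single RS library.

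Other miRNAs with the same seed bases gave mixed results in the haploid lines against R1. Among the 1158 names matched to a mature sequence, 3 outside the 5 arms carry AAGUGC at bases 2 to 7, and of these 2 were lower and 1 was higher, where 35.3% of all features were lower and 35.3% higher. miR-292a-3p and miR-302a-3p had no matched mature sequence and are not in this count. miR-302b-3p and miR-302d-3p, ESC miRNAs of the miR-302 cluster, and the most abundant members of the miR-17 seed family, miR-93-5p and miR-20a-5p, are printed to show the seed, which sits at bases 2 to 8 in each; the loci are given in GRCm38.p6.
miR-302b-3p: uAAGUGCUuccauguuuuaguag
miR-302d-3p: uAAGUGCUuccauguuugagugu
miR-93-5p: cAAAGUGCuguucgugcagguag
miR-20a-5p: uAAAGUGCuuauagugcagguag
They lie at chr3:127545275-127545297, chr3:127545665-127545687, chr5:138165574-138165596 (minus strand) and chr14:115044183-115044205. miR-302b-3p was lower in the haploid lines, at -1.22 on the log2 scale (SE 0.26, edgeR adjusted p 0.000613), as was miR-302d-3p, at -0.91 (SE 0.25, adjusted p 0.00489). The third, miR-350-5p, named after its value was seen, was higher by 2.89 (SE 0.34, adjusted p 2.43e-06).

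The miR-17 seed family, with AAAGUGC at bases 2 to 8, had 6 members in the count table, and all 6 were lower in the haploid lines than in R1, where 35.3% of all features were lower, with a median log2 difference of -2.97 over the 6 and 0.33 over all features. miR-93-5p was at -1.10 (SE 0.25, adjusted p 0.000979) and miR-20a-5p at -3.44 (SE 0.30, adjusted p 8.14e-08). Against RS, 5 of the 6 were higher in the haploid lines (44.5% of all features) and 6 of 6 in R1 (33.6% of all features). Of these, miR-106a-5p had 0 counts in RS and another member 1. Both passed the filter only through ESC libraries, so their calls were close to fixed in advance. The other 13 arms of the miR-290 cluster did not move one way: 4 were higher in the haploid lines than in R1, 4 were lower and 5 did not pass, with a median of -0.10. Against RS all 13 were higher in the haploid lines, and all 13 in R1, beside the same 44.5% and 33.6% of all features. Several of the 13 had few counts in RS, such as 0 for miR-291b-5p, 1 for miR-290a-5p and 2 for miR-295-5p. They passed the filter only through ESC libraries, so their calls were close to fixed in advance and are not read as support.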

How the data were processed

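The deposited values were raw counts of small RNA reads per miRNA, not normalised by the authors. The library kit ligated a 3′ adapter before the 5′ one, a gel step selected the insert size, and a NovaSeq gave single-end reads, per the labels' protocols. The submitters' processing notes name Bowtie 0.12.9 and DESeq2; for genome build, miRBase release, treatment of reads with several matches and use of strand, no statement was given in the sources used here. Of 1549 features, 1366 carried a mouse miRBase name, and 1158 of these matched a RefSeq mature sequence by name.

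The analysis used edgeR 4.0.16 under R 4.3.3: filterByExpr by group (minimum count 10, minimum total 15), TMM scaling and the two-sided quasi-likelihood F-test, with Benjamini-Hochberg adjustment over all tested features and a call at 0.05. Comparisons among ESC came from a fit of the 9 ESC libraries (757 features, all 5 arms among them), and those with RS from a fit of all 12 libraries (806 features). The haploid lines weighed equally. Arm use was tested with diffSpliceDGE. Ratios of pooled counts carry exact 95% intervals, which cover counting error only, since PCR reads are not independent molecules. Where a group had 0 counts, any fold given is the lower limit of such an interval. The code was tested on simulated data.

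The members and lists were chosen with earlier results of these data known. Named in the text are the 5 arms and their 5p partners, at most 2 other members of each seed family by mean CPM, and the 3 miRNAs of most like pattern (mean CPM of at least 10). Alternatives covered scaling, filtering, GC content, the replicate number as a block, DESeq2 1.42.0, counts summed per line and each library left out.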

Additional observations from a re-analysis of the deposited data

Results flagged for a closer look

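miR-290a-3p was the arm whose difference from R1 was not the same in the haploid lines, by an F-test over the lines (edgeR adjusted p 0.0394). Set against R1 on the log2 scale, A129-2 lay at -2.07, A129-6 at -1.66 and A129-17 at -0.35. Its level was higher in both A129-17 libraries than in each of the other 5 haploid libraries, and the 3p share of its hairpin showed the same order, at 19.0% in A129-17, 6.88% in A129-6 and 5.51% in A129-2. Its locus is shared with miR-290b-5p on the opposite strand, and the part of strand in its counts was not tested.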

How the results depend on the processing

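Against R1, the lower level of miR-291a-3p in the haploid mean kept its direction and call under all 21 alternatives, and that of miR-291b-3p under all 20 that gave a value. The stricter filter did not keep miR-291b-3p, and it passed the main filter only through its R1 counts. Of the comparisons with RS, those of miR-290a-3p, miR-291a-3p, miR-294-3p and miR-295-3p kept direction and call under every alternative run. The call of miR-290a-3p against RS was close to fixed in advance by the filter. Scaling moved the arms along with the other features: RLE moved the median difference from R1 over all features by -0.24, upper-quartile scaling by 0.31, total counts by -0.12, leaving the cluster out by -0.11, and all 12 libraries in the fit by 0.85. Where a value moved, the cause was not tested. The 2 libraries of lowest TMM factor were left out as an alternative chosen after seeing the data. RS depth limits miR-291b-3p and all RS shares, and 2 R1 libraries limit every comparison with R1.

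Signs turned as follows. With all 12 libraries in the fit, miR-294-3p against R1 was 0.39 for the haploid mean, 0.34 in A129-2, 0.55 in A129-6 and 0.28 in A129-17, miR-295-3p was 0.018 in A129-6, and miR-290a-3p was 0.53 in A129-17. With the GC correction, fitted on the 609 of 757 features with a sequence, miR-294-3p was 0.74 for the haploid mean, 0.67 for A129-2, 0.78 for A129-6 and 0.78 for A129-17, and miR-295-3p was 1.03 for the haploid mean, 0.80 for A129-2, 1.04 for A129-6 and 1.25 for A129-17. Each of these GC-corrected differences was called as higher. With upper-quartile scaling miR-294-3p was 0.018 in A129-6 and miR-290a-3p 0.032 in A129-17, where the stricter filter gave 0.036. With miR-292a-3p in the sum, the share of miR-294-3p in the haploid lines minus R1 turned to -2.28 percentage points (12.8 without it), and those of miR-291a-3p, miR-291b-3p and miR-295-3p moved to -7.21, -0.00408 and -10.3. With each ESC library left out, these share differences ranged from -9.90 to -8.38 for miR-291a-3p, -0.00774 to -0.00568 for miR-291b-3p and -5.96 to -1.18 for miR-295-3p, and for miR-290a-3p from -0.0950 to 0.000775, positive without A129-17 replicate 2.

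Counts of arms called changed too. With all 12 libraries in the fit, 2 were called for the haploid mean, 2 in A129-2, 2 in A129-6 and 1 in A129-17 against R1, and 0 between the lines. The stricter filter gave 2 in A129-2, 2 in A129-6, 1 in A129-17 and 0 between the lines, and total-count scaling gave 0 between the lines. Part of the fall under the stricter filter is an arm not tested, since miR-291b-3p was not kept. The call of miR-295-3p was lost there in each line. Against R1, calls over all features stayed close to the main fit with all 12 libraries. With the stricter filter they were fewer in each line. Without each library in turn, the count was 2 to 5 in A129-2, 0 to 1 between the lines and 2 to 4 for arm use, at 2 without either R1 library. Between A129-17 and A129-2, 1 was called (miR-290a-3p) with RLE, upper-quartile scaling, the cluster left out, no filter, the replicate block, DESeq2 and the 2 libraries left out, and between A129-17 and A129-6, 1 with no filter, the replicate block and DESeq2. Leaving out single libraries gave 0 to 1 for both pairs. Over all features, calls between the lines were 0 to 90 against 29, and for the pairs A129-6 with A129-2, A129-17 with A129-2 and A129-17 with A129-6 they were 0 to 42, 0 to 100 and 0 to 45 against 18, 0 and 0.

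The replicate numbers share no batch in the labels, so the samples were not treated as paired. Same-numbered libraries deviated together with r of -0.41 to 0.16. Most pairs of groups share only 2 numbers, which then give the same r, so these values cannot exclude a pairing. With the replicate number as a block, 4 arms were called for the haploid mean against R1, and miR-295-3p in A129-6 was at an adjusted p of 0.0522.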
